A study of Homo sapiens with 1 sample.

Results

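MicroRNAs (miRNAs) of the miR-192, miR-194 and miR-215 group and miR-375 were described on 1 array of DLD-1, a human line of colorectal carcinoma cells, that carried a negative control plasmid. The array was read by its own names: every spot that is not a control and whose name equals 1 of 7 mature miRNAs, hsa-miR-192-5p, hsa-miR-192-3p, hsa-miR-194-5p, hsa-miR-194-3p, hsa-miR-215-5p, hsa-miR-215-3p and hsa-miR-375, was taken. This gave 7 of the 2549 human miRNAs measured, with 140 of 50980 spots on 16 probes. The cells were grown in medium with serum and transfected with the empty vector pLVX-NC, which serves in the study as the control for circLONP2 overexpression. Cells overexpressing the circular RNA circLONP2 were not analysed here. There was 1 array of 1 transfection, so no condition was compared, no p-value is given, and all errors are SDs or standard errors from spots, which are technical repeats.

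A miRNA is cut as a hairpin from a longer transcript, and 1 or both of its arms (5p and 3p) are loaded into Argonaute, where bases 2 to 8, the seed, pair with target messenger RNAs. miR-192, miR-194 and miR-215 are enriched in the epithelium of the gut, are driven by HNF1 factors in differentiating enterocytes, and have been placed downstream of p53. miR-375 is a marker of endocrine cells and is also made by gut epithelium. These miRNAs are often reported at lower level in colorectal carcinoma than in normal mucosa.

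The miRNAs come from 5 hairpins, and RefSeq (build GRCh38.p14) placed 4 of them as 2 pairs. MIR215 (chr1:220117853-220117962, minus strand) lies 194 bases from MIR194-1 (chr1:220118157-220118241, minus strand), and both are inside the gene IARS2 and the long non-coding RNA gene LOC124904515. MIR192 (chr11:64891137-64891246, minus strand) lies 108 bases from MIR194-2 (chr11:64891355-64891439, minus strand), and both are inside the long non-coding RNA gene MIR194-2HG. MIR375 (chr2:219001645-219001708, minus strand) lies inside no other annotated gene. Both MIR194 hairpins give the same miR-194-5p, so a signal for it cannot be assigned to 1 chromosome, whereas miR-194-3p is listed for MIR194-2 only. The array name miR-375 carries no arm and was matched to miR-375-3p, while the other 6 names matched exactly.

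The mature sequences are shown because 2 of the miRNAs share a seed and nearly all of their length. Each is written 5′ to 3′ with its seed in capitals.
hsa-miR-192-5p: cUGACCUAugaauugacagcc
hsa-miR-215-5p: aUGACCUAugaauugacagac
hsa-miR-194-5p: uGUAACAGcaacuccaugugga
hsa-miR-194-3p: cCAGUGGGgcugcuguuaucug
hsa-miR-192-3p: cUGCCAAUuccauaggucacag
hsa-miR-215-3p: uCUGUCAUuucuuuaggccaaua
hsa-miR-375: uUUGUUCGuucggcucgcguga

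miR-192-5p and miR-215-5p, the first pair in this list, are both 21 bases long and are identical at 19 of them. Counted from the 5′ end, the differences are C1A and C20A, with the miR-192-5p base first. Among the 2370 mature miRNA names of the RefSeq table, miR-215-5p was the only other one with the seed of miR-192-5p. None of the other 5 miRNAs shared its seed with another entry.

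The hairpins of the 2 clusters are shown with the mature miRNAs measured here in capitals, to place the arms that were and were not detected.
MIR215: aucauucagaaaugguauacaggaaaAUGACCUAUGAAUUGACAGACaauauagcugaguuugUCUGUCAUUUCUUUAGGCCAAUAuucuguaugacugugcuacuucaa
MIR194-1: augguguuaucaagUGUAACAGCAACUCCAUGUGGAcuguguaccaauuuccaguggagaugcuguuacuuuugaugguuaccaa
MIR192: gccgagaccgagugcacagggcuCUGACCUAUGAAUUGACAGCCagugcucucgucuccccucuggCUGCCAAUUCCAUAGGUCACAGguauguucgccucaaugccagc
MIR194-2: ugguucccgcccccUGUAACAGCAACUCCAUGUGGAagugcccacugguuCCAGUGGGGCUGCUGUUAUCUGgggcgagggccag

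Brightness is given in scanner units after the software had subtracted the local background, so it can fall below 0. Spots marked as outliers, 4.06% of all human miRNA spots and 2 of the 140, were left out. The 1000 negative control spots, which carry no human target, had a 99th percentile of 12.5, called the negative control level below. It was set mostly by 1 of the 7 negative control probes, with a median of 8.62 against -3.18 to 2.27 for the other 6, and it was 5.58 without that probe. Probes bind with different strength, so the brightness of different miRNAs is set side by side here as brightness and not as amount of RNA.

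miR-215-5p, miR-375 and miR-194-3p were detected in the DLD-1 control cells, and miR-192-5p, miR-192-3p, miR-194-5p and miR-215-3p were not. Detection is the flag that the scanner software sets for each miRNA, and it was carried by 3 of the 7 (42.9%) against 56.8% of all human miRNAs. The same 3 had a probe on which a share of 0.5 or more of the spots was well above background, a criterion met by 49.9% of all human miRNAs. They also had a probe with every spot well above background, as did 45.8% of all, and a brightest probe above the negative control level, as did 55.9%. A looser criterion, a share of 0.5 or more with spots positive and significant over background, added miR-192-5p and gave 4 of 7, against 68.9% of all.

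**Figure D1:**
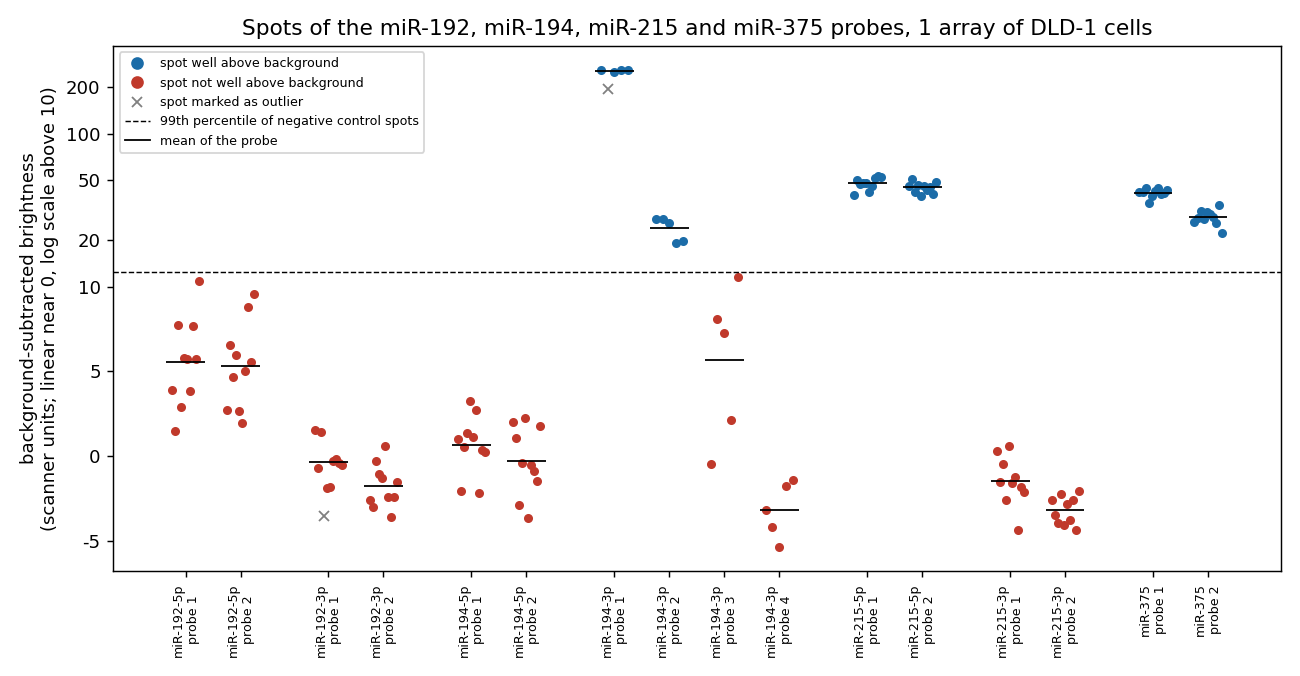
Background-subtracted brightness (vertical axis, scanner units, linear near 0 and logarithmic above 10) of each spot of the 16 probes, ordered by miRNA and by probe from the brightest (probe 1). Blue spots are well above background, red spots are not, crosses are outliers, short lines are probe means and the dashed line is the negative control level (12.5). All spots of miR-215-5p and miR-375 lie above the line, all spots of miR-192-5p, miR-192-3p, miR-194-5p and miR-215-3p lie below it, and miR-194-3p has probes on both sides.

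miR-215-5p, the guide arm of MIR215, had the smallest difference between its probes among the 3 detected miRNAs. Its 20 spots ran from 39.3 to 53.0 with a median of 45.7 and a mean of 45.9 ± 4.11 (SD over 20 spots), and all 20 were well above background. The lowest spot was thus above the negative control level of 12.5. Its 2 probes had means of 47.3 ± 4.29 and 44.4 ± 3.54 (SD over 10 spots each). On the log2 scale they differed by 0.09 (standard error 0.06 from the spots). Their spots overlapped over most of their range. The brighter probe was 3.79-fold above the negative control level and 8.48-fold above it without the 1 bright control probe.

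miR-375, which restrains insulin secretion in pancreatic islet cells and targets PDK1 in other tissues, was also well above background in every spot. Its 20 spots ran from 22.3 to 44.0 with a median of 34.7 and a mean of 34.8 ± 7.08 (SD over 20 spots), and all 20 were well above background. Most of this SD came from its 2 probes, which did not overlap. Their means were 41.1 ± 2.57, with spots from 35.2 to 44.0, and 28.4 ± 3.26, with spots from 22.3 to 34.2, and they differed by 0.54 on the log2 scale (standard error 0.06). The brighter probe was 3.29-fold above the negative control level.

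miR-194-3p, the 3p arm of MIR194-2, was detected through 2 of its 4 probes, and 1 of these carried nearly all of the signal. The brightest probe had a mean of 258.1 ± 4.28 (SD over 4 spots), with spots from 251.9 to 261.1 and 1 further spot left out as an outlier. The next probe had a mean of 24.0 ± 4.18 (SD over 5 spots), with spots from 19.2 to 27.8. These 2 probes were well above background in every spot used. The third probe ran from -0.44 to 11.5 and the fourth from -5.31 to -1.38, and no spot of either was well above background. Of the 5 spots of the third probe, 3 were positive and significant over background, against 0 of 5 for the fourth. The 2 brighter probes differed by 3.44 on the log2 scale (standard error 0.12), a 10.7-fold ratio of means. In the software's total signal the brightest probe made up 91.5% and the next 8.52%, and the others were not counted. A mean over all of its spots, 61.3 ± 105.0 (SD over 19 spots), therefore describes none of its probes. What the probes differ in was not tested, since their sequences were not used here.

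The gap between the 2 brightest probes could be measured for 1391 detected human miRNAs whose second probe had no spot below 1, where its median was 0.28 on the log2 scale and its 90th percentile 1.40. Of the 1391, 12 had a larger gap than miR-194-3p. A further 56 detected miRNAs were left out because a spot of their second probe was below 1, a condition that a large gap can itself bring about. With such spots raised to 1, 37 of these 56 also exceeded miR-194-3p. Among the miRNAs with 4 probes, the median of the 131 measured was 0.26, and 2 of these 131 and 4 of the 7 left out had a larger gap. Of the 138 detected miRNAs with 4 probes, 61 had a share of 0.5 or more of the spots well above background on all 4. Another 15 had it on exactly 3, 13 on exactly 2 as miR-194-3p did, 19 on exactly 1 and 30 on 0. The gaps of miR-215-5p and miR-375 were larger than 22.9% and 67.9% of the 1391.

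**Figure D2:**
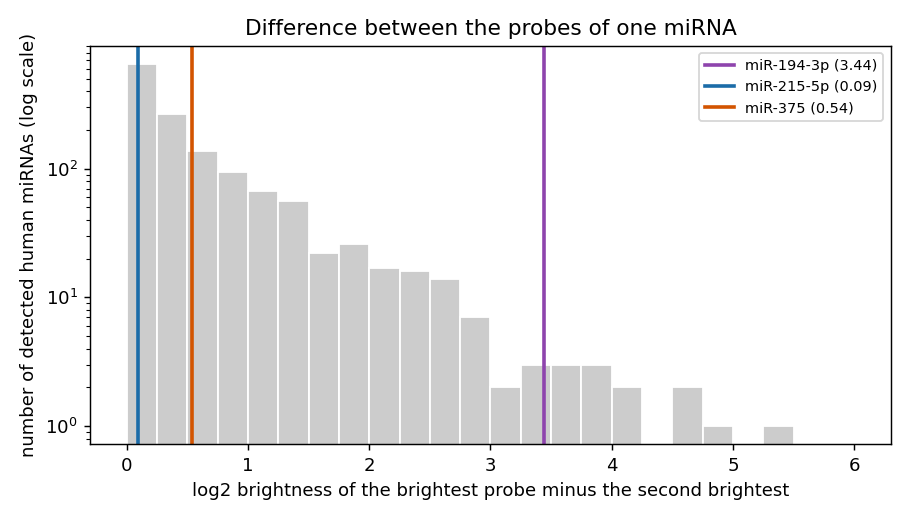
Number of detected human miRNAs (vertical axis, log scale) by the log2 brightness of the brightest probe minus the second brightest (horizontal axis), for the 1391 miRNAs whose second probe had no spot below 1. The coloured lines mark miR-215-5p (0.09), miR-375 (0.54) and miR-194-3p (3.44), and 12 of the miRNAs plotted lie to the right of the last.

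miR-192-5p, which differs from miR-215-5p at 2 bases and has the same seed, stayed below the level of detection. Its 20 spots ran from 1.49 to 10.9 with a median of 5.63 and a mean of 5.46 ± 2.56 (SD over 20 spots), and 0 of the 20 were well above background. The highest of them lay below the lowest spot of miR-215-5p, 39.3. All of the miR-192-5p spots were nevertheless above 0, and 15 of the 20 were positive and significant over background. Its 2 probes had means of 5.57 ± 2.73 and 5.35 ± 2.53 (SD over 10 spots each). These values lay between the medians of the 2 brightest negative control probes, 8.62 and 2.27, and the brighter mean was 0.998 of the 99th percentile that remained without the 1 bright control probe. Of the 1101 human miRNAs that were not detected, 132 (12.0%) had at least as many positive and significant spots as miR-192-5p. How much of the miR-192-5p or miR-215-5p signal comes from the other miRNA binding to the same probes was not tested.

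miR-194-5p, the guide arm of both MIR194 hairpins, had no signal that could be told from background at this brightness. Its 20 spots ran from -3.61 to 3.25 with a median of 0.50 and a mean of 0.21 ± 1.90 (SD over 20 spots), and 0 were positive and significant. Its 2 probes had means of 0.67 ± 1.73 and -0.25 ± 2.03 (SD over 10 spots each).

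The 3p arms of MIR192 and MIR215 could not be told from background either. miR-192-3p had spots from -3.59 to 1.55 and a mean of -1.05 ± 1.41 (SD over 19 spots), with 16 of the 19 below 0. miR-215-3p had spots from -4.33 to 0.64 and a mean of -2.31 ± 1.44 (SD over 20 spots), with 18 of the 20 below 0. Neither had a spot that was positive and significant. Both lay within the range of the medians of the negative control probes.

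By hairpin, MIR215 was detected by its 5p arm alone, MIR194-2 by its 3p arm alone and MIR192 by neither arm. Over the 810 miRNA names with both arms on the array, the 5p arm alone was detected for 28.6%, the 3p arm alone for 17.8%, neither arm for 22.1% and both arms for 31.5%. In both clusters, whose hairpins are 194 and 108 bases apart, 1 of 2 neighbouring hairpins had a detected arm. MIR215 was detected beside MIR194-1, whose measured arm miR-194-5p was not. MIR194-2 was detected beside MIR192 by miR-194-3p alone, for which 1 probe made up 91.5% of the total signal. Across 101 pairs of neighbouring hairpins on the same strand within 1000 bases, counting these, both hairpins had a detected arm in 48, exactly 1 in 35 (34.7%) and neither in 18.

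All 3 detected miRNAs lay below the median signal of detected miRNAs. Relative to the 75th percentile of the probes of detected miRNAs, a brightness of 186.4, the log2 signal was -2.03 for miR-215-5p, -2.45 for miR-375 and -3.87 for miR-194-3p. Of the 1448 detected human miRNAs, 44.1%, 37.6% and 11.6% had a lower signal than these 3 in the same order. miR-194-3p takes its low place from the probes at background, and by its brightest probe alone the value was 0.47. Ordered by the software's total signal, which leaves out probes that were not detected, miR-194-3p moved to the top of the 3, with 52.9% of the detected miRNAs below it, against 42.3% for miR-215-5p and 35.7% for miR-375. The order of miR-215-5p over miR-375 was the same both ways. Since the probes of miR-375 alone differ by 0.54, the 0.42 that separates these 2 miRNAs on the log2 scale was not larger than the difference between probes of 1 miRNA.

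**Figure D3:**
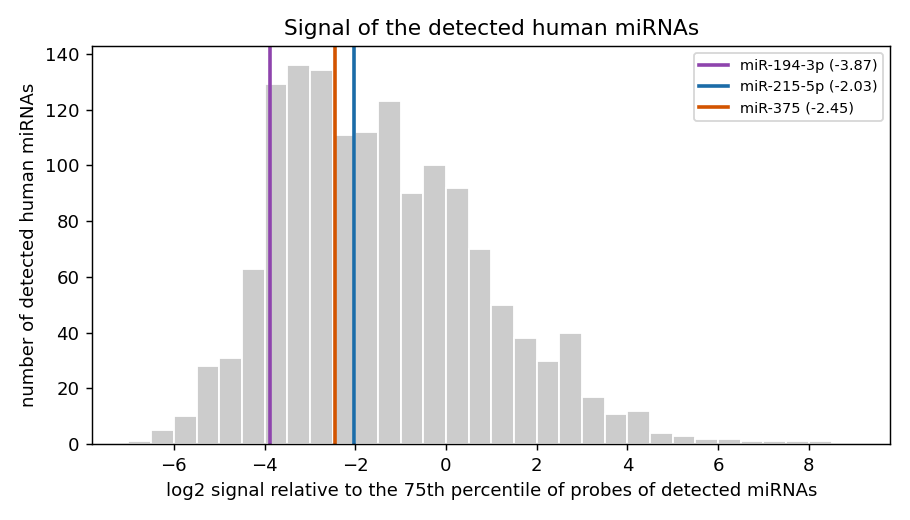
Number of detected human miRNAs (vertical axis) by log2 signal relative to the 75th percentile of the probes of detected miRNAs (horizontal axis), for 1448 miRNAs. The coloured lines mark miR-215-5p (-2.03), miR-375 (-2.45) and miR-194-3p (-3.87), all below the reference at 0.

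The authors' normalized log2 values of the same array gave the order of the total signal. They were 4.28 for miR-194-3p, 3.69 for miR-215-5p and 3.36 for miR-375. The 4 miRNAs that were not detected shared the lowest value in the table, 2.32. It was held by all 1101 human miRNAs that were not detected and by 0 of the detected ones, so it ranks nothing among them. On the linear scale the values were 19.4, 12.9 and 10.2 against 5.0. In the total signal, whose order these values kept for the 3, the brightest probe of miR-194-3p made up 91.5%.

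These miRNAs were set beside lists of miRNAs known from other cells, as a check of the labelled cell type. All 5 listed members of the miR-200 family, which holds epithelial cells in their state by repressing ZEB1 and ZEB2, carried the detection flag, against 56.8% of all human miRNAs. Their mean brightness ran from 18.3 ± 9.05 for miR-200a-3p (SD over 19 spots) to 3024 ± 401.1 for miR-141-3p (SD over 20 spots). Other epithelial miRNAs were detected as well, 3 of 3, with a log2 signal relative to the same 75th percentile from -3.96 for miR-31-5p to -0.92 for miR-205-5p, a marker of squamous epithelium. miR-31-5p carried the flag with 2 of its 19 spots well above background and miR-203a-3p with 1 of 20. Beside these lists, miR-215-5p, miR-194-3p and miR-375 carried the flag, and the other 4 miRNAs described here did not.

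Of the miRNAs that accompany miR-375 in endocrine cells, 2 of 3 were detected, against 56.8% of all human miRNAs, and nothing is read from this count. Both were dimmer than miR-375, and their means, given next, stand beside a negative control level of 12.5. miR-7-5p had a mean of 14.1 ± 13.9 (SD over 17 spots) and miR-7-1-3p of 10.0 ± 3.04 (SD over 19 spots), with 0 of its spots well above background. miR-7-2-3p was not detected.

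The flag was also carried by miRNAs of cells that a pure line should lack, 8 of 17 markers of 6 other cell types, against the same 56.8% of all human miRNAs. The lists are small, and nothing is read from their counts. For blood cells it was 3 of 6, with summed brightness 42.8 over the list. miR-223-3p reached 16.5 ± 2.46 (SD over 20 spots), miR-142-3p 15.3 ± 6.14 (SD over 17 spots) and miR-150-5p 12.2 ± 24.5 (SD over 19 spots). miR-142-5p, the other arm of miR-142-3p, was not detected, and neither were miR-451a and miR-144-3p. For the list drawn up for fibroblasts and smooth muscle it was 2 of 3. miR-145-5p was at 37.0 ± 5.48 (SD over 18 spots) and miR-143-3p was not detected. The third entry, miR-133a-3p, is not specific to smooth muscle among muscle types, and was at 14.2 ± 3.33 (SD over 19 spots). For endothelium miR-126-3p reached 58.9 ± 5.64 (SD over 19 spots) and miR-126-5p was not detected. For skeletal muscle miR-206 reached 26.7 ± 6.24 (SD over 20 spots), with miR-1-3p and miR-133b not detected. For neurons miR-124-3p reached 77.2 ± 19.4 (SD over 20 spots), with miR-9-5p not detected, and the hepatocyte miR-122-5p was not detected. The brightness of miR-215-5p and miR-375 lay within the range of these markers. What part signal of other origin has in the brightness of miR-215-5p, miR-375 or miR-194-3p was not tested.

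**Figure D4:**
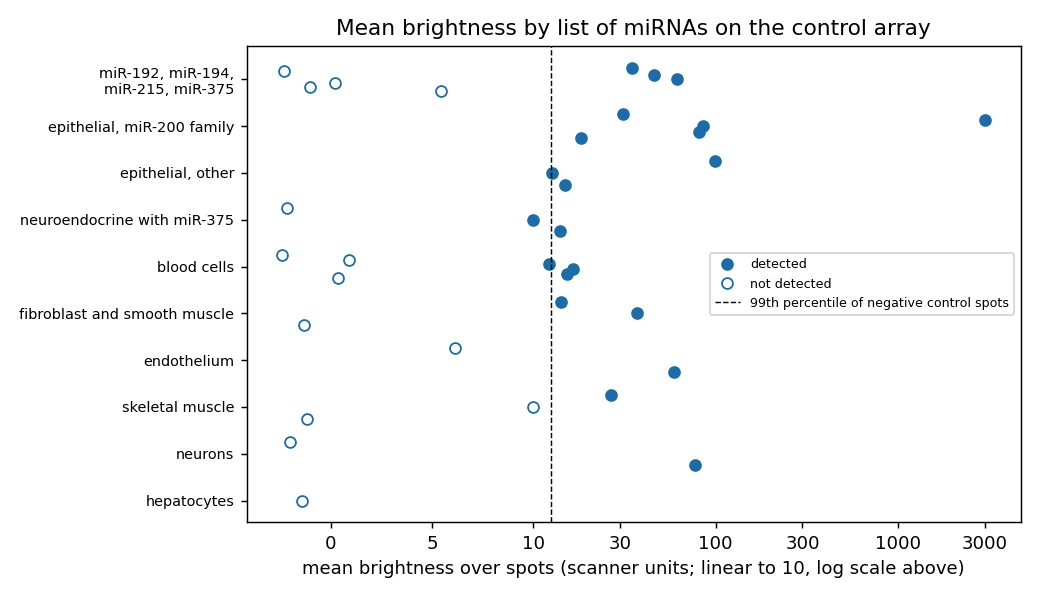
Mean brightness over spots (horizontal axis, scanner units, linear to 10 and logarithmic above) of each miRNA, in rows by list, with filled circles for detected and open circles for not detected miRNAs. The dashed line is the negative control level (12.5). The filled circles of the top row, at 34.8, 45.9 and 61.3, lie within the range of the other lists, and miR-141-3p stands alone at 3024.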

How the data were processed

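miRNA was measured on 1 one-colour array of DLD-1 cells with the negative control plasmid, grouped by its title in the labels. Per the file headers, the deposited intensity of each spot came from Agilent Feature Extraction 11.0.1.1 (Cy3 channel), which also subtracted the background and set 0 or 1 flags for spots and miRNAs. The authors further deposited log2 values, described as quantile normalized in GeneSpring GX; which arrays were normalized together is not given in the sources used here. Labelling is described as dye ligation to miRNA in the labels and as labelled cDNA in the methods.

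Control and outlier spots were not used, values under 1 were raised to 1 before taking log2, and log2 values were averaged over spots, then probes, and expressed relative to the 75th percentile of probes of detected miRNAs. Flags were counted over the spots used. All 7 miRNAs were named, with each list's brightest, dimmest detected and undetected entries, and miR-203a-3p and miR-142-3p besides. The miRNAs, lists and alternatives were chosen with earlier results of these data known. Python 3.11.15, numpy 2.4.6, pandas 2.3.3, matplotlib 3.10.9 and limma 3.58.1 in R 4.3.3 (normexp, offset 50, on median signals) were used. The averaging was tested on simulated data in which all probes of a miRNA had the same level. It was not tested for probes that differ, as those of miR-194-3p do. Nor was it tested for spots raised to 1, since the simulated levels lay above that floor. The number of arrays, 1, limits the precision, and no test between conditions was made. Sequences and coordinates are from RefSeq, GRCh38.p14.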

Additional observations from a re-analysis of the deposited data

How the results depend on the processing

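The count of 3 detected miRNAs was 3 when a probe needed 0.5 or more, or all, of its spots well above background, and 4, with miR-192-5p, when positive and significant spots were enough. The count of 3 above the negative controls stayed 3 with the highest control probe median, without the 1 bright control probe and with a 2-fold margin, and was 1, miR-194-3p, with a 4-fold margin. The signal of miR-194-3p, -3.87, turned to 0.47 for its brightest probe alone. Otherwise it ranged from -7.54 for its dimmest probe to -1.30 after normexp. Every spot of that dimmest probe was below 1 and was raised to 1, so the -7.54 is set by this floor and is not a measured level. The signal was -1.55 from the total signal and -4.29 with a reference over brighter probes. Of 24 signals under alternatives, 23 stayed below the reference percentile. The miR-215-5p signal of -2.03 ranged from -2.44 with a reference over brighter probes, chosen after the data were examined, to -0.65 over all human miRNA probes, and that of miR-375, -2.45, from -2.87 to -1.08 in the same settings. After normexp, whose offset narrows ratios, the gap between the 2 brightest probes of miR-194-3p fell from 3.44 to 1.93. miRNAs at background have only an upper bound on this array. No paired analysis was possible because the data hold a single array.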
